A study of Mus musculus with 31 samples.

Results

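Messenger RNA is removed in steps: its poly(A) tail is shortened, its cap is cut off, and the body is degraded. The genes described here encode 10 of the proteins that carry out these steps, and they were chosen by name out of 46130 genes with an exonic entry. They are Cnot1, Cnot6, Cnot6l, Cnot7 and Cnot8 of the CCR4-NOT deadenylase, Pan2 and Pan3 of the other main deadenylase, Dcp1a and Dcp2 of the decapping enzyme, and Xrn1, the cytoplasmic exonuclease that works from the 5′ end. Their signal was followed in mouse embryonic stem cells of the lines DTCM23/49 XY, which carry a conditional Dicer1 gene and were grown with serum and LIF on gelatin. The 4sU experiment had 16 libraries. They came from 4 cultures, 2 of them wild-type (WT) and the other two depleted of Dicer, each labelled for 10 and 15 minutes with 200 µM 4-thiouridine (4sU), a uridine analogue that marks newly made RNA. RNA was split into a labelled (new) fraction and an unlabelled fraction, called preexisting in the sample characteristics and total in the titles. Dicer loss was induced with 800 nM 4-hydroxytamoxifen. For the 4sU libraries the labels give this dose for depleted samples only, but 8 days for WT and depleted samples alike. Whether the WT cultures received the drug is thus unclear. If they did not, effects of the drug and of Dicer loss cannot be told apart. A second set of 15 small RNA libraries, 3 at each of days 0, 4, 8, 10 and 12 of the drug, all carry the label Dicer depleted, the untreated day 0 included.

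Dicer cuts microRNA precursors into mature microRNAs. These guide Argonaute proteins to partly matching sites in messenger RNAs, and Argonaute's partner TNRC6 (GW182) brings in CCR4-NOT and PAN2-PAN3, after which decapping and XRN1 follow. CCR4-NOT is built on the scaffold CNOT1 and holds a pair of nucleases: a CCR4-type one (CNOT6 or CNOT6L) and a CAF1-type one (CNOT7 or CNOT8). The genes of this machinery are therefore the means by which microRNAs act, and like other messenger RNAs theirs can carry microRNA sites in their 3′ untranslated regions (3′UTRs).

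The depletion was seen in both kinds of library. Exonic Dicer1 signal in preexisting RNA was 13.4, 17.6, 17.9 and 17.2 TPM (transcripts-per-million, a length-corrected share of a library's signal) in the 4 WT libraries and 1.20, 3.23, 3.37 and 2.95 TPM in the 4 depleted ones. Its log2 change was -2.29 (SE 0.248, n = 2 cultures per genotype, limma adjusted p = 0.0347), and without any 1 of the 4 cultures the limma adjusted p was 0.182 to 0.388. The labels used here do not say which part of the gene is removed. In labelled RNA the change was -1.26 (limma adjusted p = 0.143). Of the mature microRNAs with a RefSeq sequence, the 6 most abundant at day 0 were followed. At day 8 they kept between 0.978 and 8.29% of their day 0 level, in RPM (reads-per-million, out of all reads, with 11134202 to 16216368 reads per library). Cell type markers were examined in the preexisting libraries. All 8 stem cell markers had a mean of at least 1 TPM, with summed levels of 642 to 800.0 TPM in WT and 791 to 912 TPM in depleted libraries. The summed level of 4 neural and mesoderm markers was 5.35 to 12.8 TPM in WT and 10.6 to 38.5 TPM in depleted libraries. Only 1 of these 4 had a mean of at least 1 TPM, and T was at or near 0. Of the primitive endoderm, trophoblast and fibroblast markers, Gata6, Cdx2, Col1a2 and Col3a1 were at or near 0, and no library's sum for any of these lists was above 2.93 TPM. Intronic signal made up 15.6 to 18.4% of WT and 18.5 to 23.3% of depleted labelled libraries, and 4.41 to 5.49% and 5.37 to 6.68% of the preexisting ones. The part of these shifts in the results was not tested.

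Sites for these microRNAs were looked for in the members' own 3′UTRs, taking the longest coding 3′UTR listed in GENCODE M21 for each gene. The sequences of the 3 microRNAs that matched Cnot6l are shown because Cnot6l had the largest change between genotypes. Bases are 5′ to 3′ from the RefSeq table for GRCm38.p6, with the seed (bases 2 to 8) in capitals.
miR-295-3p: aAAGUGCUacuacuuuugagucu
miR-22-3p: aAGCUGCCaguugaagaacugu
miR-21a-5p: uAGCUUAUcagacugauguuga
These lie at chr7:3220815-3220837 (+), chr11:75463772-75463793 (+) and chr11:86584120-86584141 (-). miR-295-3p belongs to the microRNA cluster typical of mouse embryonic stem cells, and miR-302d-3p, miR-291a-3p and miR-294-3p share its seed. miR-295-3p was at 20702 ± 2300.4 RPM at day 0 and at 472 ± 126 RPM at day 8 (SD, n = 3), which was 2.28% of the start. miR-22-3p kept 5.52% and miR-21a-5p 8.29%. The other microRNAs of the 6 were miR-182-5p, miR-92a-3p and miR-127-3p, and all 6 seeds differed.

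The 7-base match to the miR-295-3p seed, AGCACTT on the sense strand, occurred in 17.5% of 10948 3′UTRs. It was present in 4 members: Dcp2 with 5 matches, Cnot6 with 2, Cnot6l with 1 and Pan3 with 1. The matches of the CCR4-type nucleases and of Pan3 are shown with 8 bases on each side and the match in capitals.
Cnot6l: attatcaaAGCACTTaaatttgc
Cnot6, first: aggggaggAGCACTTactcatct
Cnot6, second: ttcatattAGCACTTtgaaacct
Pan3: agactccaAGCACTTgcaactga
In GRCm38 these windows, all in the 3′UTR, are chr5:96076651-96076673 (-), chr11:49673037-49673059 (-), chr11:49672186-49672208 (-) and chr5:147547045-147547067 (+). The Cnot6l match and the first Cnot6 match are followed by an A, the base that lies opposite the first base of the microRNA. Cnot6l also held 1 match for miR-22-3p (GGCAGCT) and 2 for miR-21a-5p (ATAAGCT), shown here in the order of their position in the 3′UTR.
Cnot6l, miR-21a-5p, first: ataagttaATAAGCTttatgcct
Cnot6l, miR-21a-5p, second: ttagtaagATAAGCTaattttca
Cnot6l, miR-22-3p: aatcttgtGGCAGCTcagaaggg
These windows are chr5:96074199-96074221, chr5:96072162-96072184 and chr5:96070521-96070543 on the minus strand. Long 3′UTRs hold more matches. Among 261 3′UTRs within 20% of the 6847 bases of Cnot6l, 63.2% held the miR-295-3p match. Among 228 near the 7240 bases of Dcp2, 61.0% did. Near the lengths of Cnot6 and Pan3 the shares were 36.7% and 31.1%. Of the 261, 44.8% held the miR-22-3p match and 30.65% the miR-21a-5p match. Over all 3′UTRs these shares were 15.0% and 7.62%. Cnot6, Pan2, Pan3 and Xrn1 also held 1 miR-22-3p match each, and Cnot6 and Pan3 1 miR-21a-5p match each. Dcp1a and Xrn1 held 1 miR-92a-3p match each, as did 17.8% and 20.9% of 3′UTRs near their lengths in holding any. No member held a match for miR-182-5p or miR-127-3p. Cnot1, Cnot7 and Cnot8, with 3′UTRs of 956, 1447 and 1006 bases, held no match to any of the 6 seeds. Such a match is a string of letters, and binding was not measured.

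All 10 genes are protein coding in GENCODE M21 (GRCm38). The CCR4-NOT genes lie at chr8:95719451-95807464 (Cnot1), chr11:49671503-49712723 (Cnot6), chr5:96070333-96164171 (Cnot6l), chr8:40492540-40515847 (Cnot7) and chr11:58104153-58118594 (Cnot8). Pan2 is at chr10:128303335-128321358, Pan3 at chr5:147430161-147548502, Dcp1a at chr14:30479535-30527063, Dcp2 at chr18:44380502-44424969 and Xrn1 at chr9:95954760-96057803.

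In WT preexisting RNA the members spanned a wide range of exonic levels. Cnot7 was at 239 ± 79.3 TPM (SD, n = 2 cultures), Pan3 at 136 ± 11.9 TPM and Cnot1 at 128 ± 17.8 TPM, and the libraries of neighbours in this order overlapped. Xrn1 followed at 50.3 ± 13.2 TPM and Cnot6 at 45.5 ± 8.94 TPM, also overlapping each other but lying below every Cnot1 library. Cnot6l lay below every Cnot6 library at 24.0 ± 3.34 TPM, with Dcp2 at 17.6 ± 1.52, Cnot8 at 14.9 ± 3.77, Dcp1a at 7.70 ± 0.392 and Pan2 at 4.88 ± 1.28 TPM. Of these, only Dcp1a and Pan2 were neighbours without overlap.

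Partner genes were listed at unequal levels, here over all their listed transcripts. Cnot7 exceeded its paralogue Cnot8 by a ratio of 8.71 to 46.3 in the WT preexisting libraries and 14.1 to 40.2 in the depleted ones. Pan3, the adaptor that holds the nuclease PAN2, exceeded Pan2 by a ratio of 23.8 to 35.2 in WT and 21.9 to 42.4 in depleted preexisting libraries. Cnot6 exceeded Cnot6l by 1.54 to 2.06 in WT and 1.14 to 1.79 in depleted preexisting libraries. The catalytic subunit Dcp2 exceeded its activator Dcp1a by 2.07 to 2.35 in WT and 2.68 to 4.31 in depleted preexisting libraries.

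These sums count all listed transcripts of a gene, not only coding ones. In WT preexisting RNA, entries of coding transcripts gave 29.5% of the Pan3 signal, 35.9% of Cnot7, 42.1% of Cnot6 and 53.5% of Xrn1, and retained-intron entries gave 31.8% of Pan3 and 46.5% of Xrn1. With coding entries alone Cnot1 led at 128 TPM, before Cnot7 at 85.8, Pan3 at 40.1, Xrn1 at 26.9, Cnot6 at 19.1 and Cnot6l at 15.4 TPM. In depleted preexisting RNA the coding entries of Cnot6 and Cnot6l were at 27.4 and 27.7 TPM, so the excess of Cnot6 over Cnot6l there rests on its other transcripts. Only 1 of the 18 GENCODE M21 transcripts of Dcp1a, 1 of 7 of Pan2 and 2 of 17 of Cnot1 were listed in the table, so the levels of these genes rest on few entries.

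**Figure D1:**
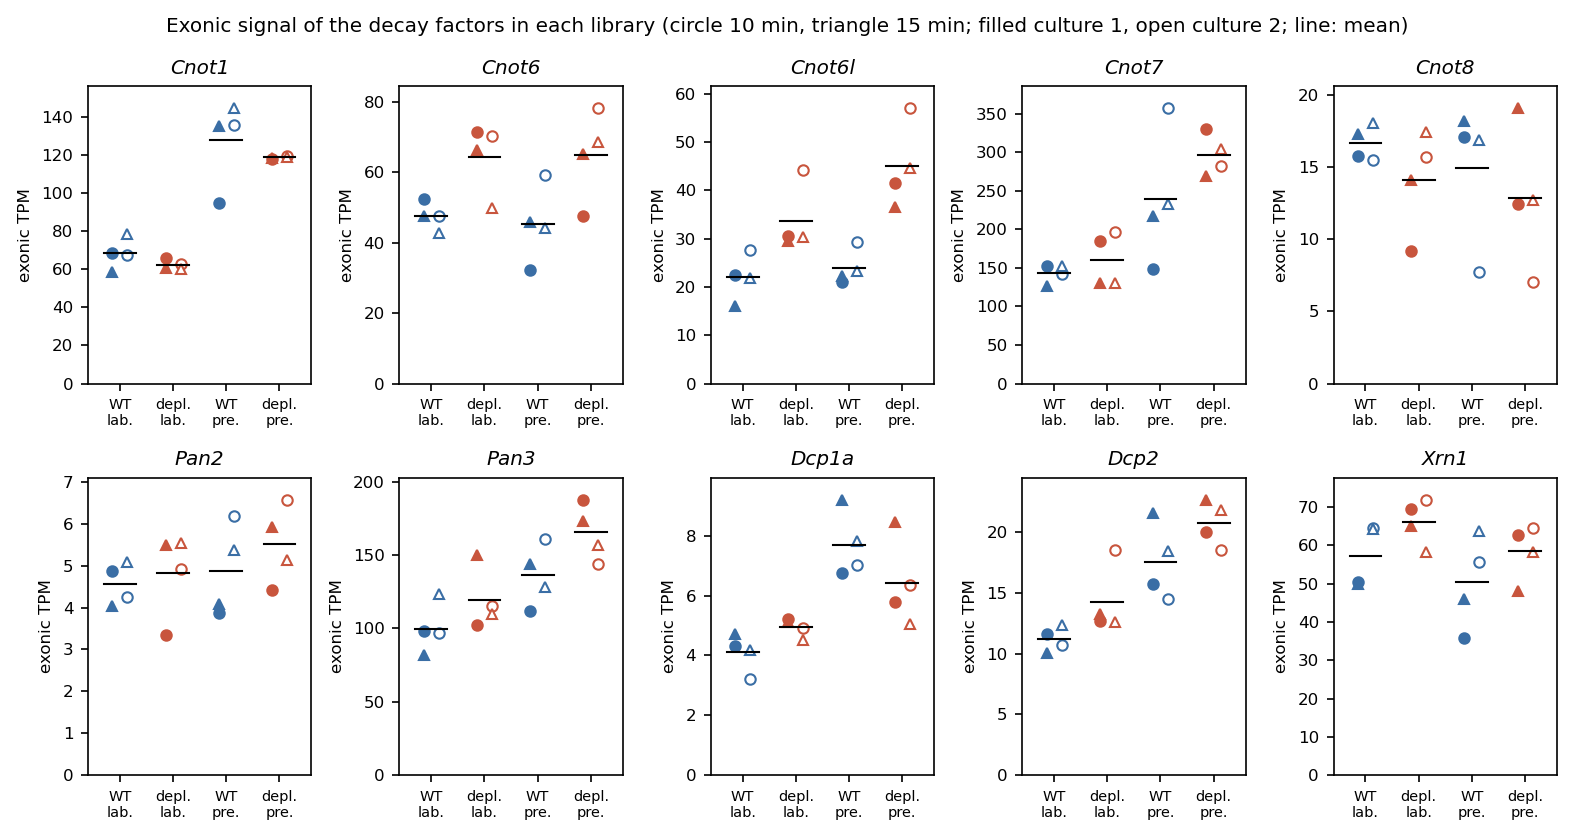
Exonic TPM (y axis, from 0) of each member in WT (blue) and Dicer-depleted (red) libraries, labelled (lab.) and preexisting (pre.), with circles for 10 and triangles for 15 minutes, filled symbols for culture 1, open for culture 2 and lines for means. The 4 depleted preexisting libraries of Cnot6l, at 36.5 to 57.1 TPM, lie above the 4 WT ones, at 21.01 to 29.3 TPM.

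Loss of Dicer was compared first in preexisting RNA, where most messenger RNA is found. No member passed the test (limma on log2(TPM + 1), adjusted p below 0.05) out of 10, while 0.646% of 21821 genes did, 0.500% higher (109 genes) and 0.147% lower (32 genes). At an unadjusted p under 0.05 there were 2 members, Cnot6l and Cnot6. That is 20% of the members, close to the 17.8% of all genes. The median log2 change of the members was 0.24, with 7 above 0 and 3 below, beside 0.035 over all genes. With 2 cultures per genotype, the p-values rest on the spread within groups, pooled over the 4 groups and moderated by limma across all genes. They say nothing of cultures beyond these. The model treated the 2 fractions of a culture as independent. Differences between replicate cultures correlated across the fractions at 0.40 in WT and 0.051 in depleted cells. In bulk RNA fewer cells and less RNA per cell cannot be told apart.

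Cnot6l, a CCR4-type nuclease, had the largest difference. Its exonic level in preexisting RNA was 21.01, 22.3, 29.3 and 23.4 TPM in the WT libraries (culture 1 at 10 and 15 minutes, then culture 2) and 41.6, 36.5, 57.1 and 44.7 TPM in the depleted ones. Every depleted library was above every WT library, which was true of 1 member and of 7.03% of all genes, with the reverse order in 0 members and 2.87% of all genes. The log2 change was 0.87 (SE 0.233, 95% interval 0.33 to 1.41), or 1.83-fold on the log2(TPM + 1) scale, and missed the threshold (limma, unadjusted p = 0.00594 and adjusted p = 0.133). Leaving out 1 culture at a time gave 0.69 to 1.05 with limma adjusted p from 0.240 to 0.497.

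Cnot6, the paralogue of Cnot6l, was at 32.4, 45.9, 59.3 and 44.2 TPM in the WT and 47.7, 65.3, 78.3 and 68.6 TPM in the depleted preexisting libraries. The genotypes overlapped, with 3 of the 4 depleted libraries above every WT library. Its log2 change was 0.52 (SE 0.222, limma adjusted p = 0.279). The miR-295-3p matches described above lie in both CCR4-type genes and also in Dcp2 and Pan3. Dcp2, with 5 matches, had a log2 change of 0.24, and Pan3, with 1, of 0.29. The part of these matches in the values was not tested.

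The CAF1-type nucleases and the scaffold, like Cnot6, overlapped between genotypes. Cnot7 preexisting levels were 149, 218, 358 and 233 TPM in WT and 330.4, 269.5, 283 and 305 TPM in depleted libraries, a log2 change of 0.37 (95% interval -0.14 to 0.88). The highest and the lowest library were both WT. Cnot8 was at 17.1, 18.2, 7.72 and 16.8 TPM in WT and 12.4, 19.1, 7.04 and 12.7 TPM in depleted libraries, a log2 change of -0.21 (95% interval -0.93 to 0.50). In both genotypes the lowest Cnot8 library was the 10 minute one of culture 2. Cnot1 was at 94.6, 135, 136 and 145 TPM in WT and 118, 118, 119 and 119 TPM in depleted libraries, a log2 change of -0.085 (95% interval -0.49 to 0.32). The depleted libraries of Cnot1 lay within the WT range.

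The second deadenylase and the decapping and decay enzymes overlapped between genotypes in preexisting RNA. Pan2 was at 3.86, 4.09, 6.19 and 5.37 TPM in WT and 4.43, 5.94, 6.58 and 5.13 TPM in depleted libraries, a log2 change of 0.16 (95% interval -0.39 to 0.71). Pan3 was at 112, 144, 161 and 128 TPM in WT and 188, 173, 144 and 157 TPM in depleted preexisting libraries, and its log2 change was 0.29 (95% interval -0.14 to 0.71). Both PAN2-PAN3 genes had their lowest library in WT culture 1 at 10 minutes. Dcp1a, the decapping activator, gave -0.24 (95% interval -0.75 to 0.26). Dcp2, the enzyme that cuts the cap, was at 15.7, 21.6, 14.5 and 18.4 TPM in WT and 20.02, 22.7, 18.5 and 21.8 TPM in depleted libraries, a log2 change of 0.24 (95% interval -0.21 to 0.69). Xrn1 was at 35.9, 46.03, 55.7 and 63.7 TPM in WT and 62.8, 48.2, 64.5 and 58.2 TPM in depleted libraries, a log2 change of 0.23 (95% interval -0.30 to 0.77). The low Xrn1 libraries were the 2 of WT culture 1 and the 15 minute one of depleted culture 1. Each of these intervals includes 0, and differences between members were not tested.

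**Figure D2:**
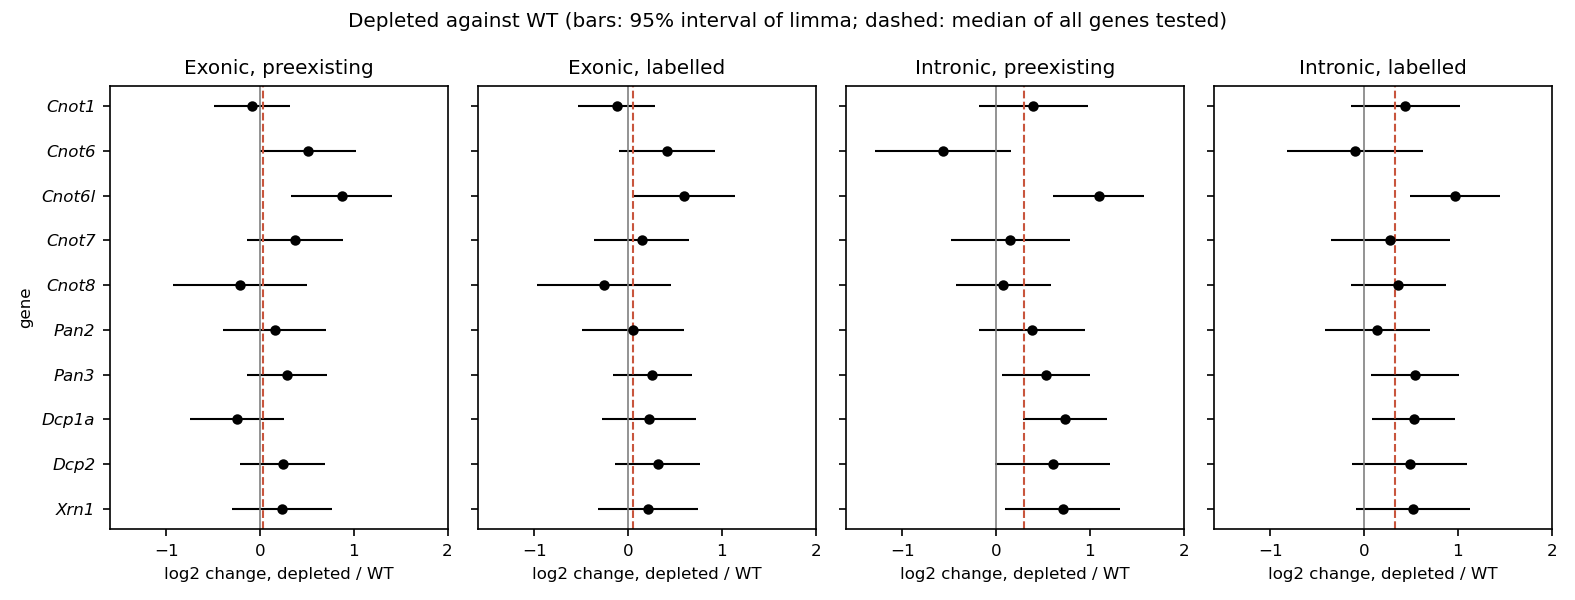
Log2 change, depleted over WT (x axis), of each member (y axis) in exonic and intronic signal of each fraction, with bars for limma's 95% intervals, a grey line at 0 and a dashed line at the median of all genes tested. Cnot6l is highest in all 4 panels, at 0.87, 0.60, 1.09 and 0.97 from left to right.

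In newly made, labelled RNA again 0 of 10 members passed the test with limma, 0.128% of all genes did (0.0917% higher and 0.0367% lower), and 1 member, Cnot6l, had an unadjusted p under 0.05, beside 13.6% of all genes. Cnot6l exonic levels were 22.4, 16.03, 27.8 and 21.8 TPM in WT and 30.6, 29.6, 44.3 and 30.3 TPM in depleted libraries. The 2 genotypes did not overlap, and the log2 change was 0.60 (SE 0.233, limma adjusted p = 0.325). Dcp2 likewise did not overlap, at 11.6, 10.0, 10.7 and 12.3 TPM in WT and 12.7, 13.3, 18.5 and 12.6 TPM in depleted libraries, with a log2 change of 0.31 (SE 0.195, limma adjusted p = 0.519). These 2 members compare with 10.9% of all genes whose depleted libraries all lay above WT, and 0 members with 4.50% that lay below. Cnot6 gave 0.42, Pan3 0.26, Dcp1a 0.22, Xrn1 0.21, Cnot7 0.14 and Pan2 0.051, while Cnot1 gave -0.12 and Cnot8 -0.25 (limma adjusted p 0.449 or more for each). The median of the members was 0.22, beside 0.056 over all genes.

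A gene whose preexisting RNA rises more than its labelled RNA would show a change in the ratio of the fractions, which relates to stability. In this comparison 0 of 10 members passed the test with limma, 0 had an unadjusted p under 0.05, and 0.00458% of all genes passed. Cnot6l had a log2 ratio change of 0.27 (SE 0.330, 95% interval -0.49 to 1.04). Within each culture, its log2 difference of preexisting over labelled RNA was 0.18 and 0.089 in WT and 0.36 and 0.45 in depleted cultures. With the fractions of a culture paired by a culture block, the Cnot6l ratio change had an SE of 0.223, a 95% interval of -0.28 to 0.82 and a limma adjusted p of 0.997 (unadjusted 0.270). In that paired fit 0 members and 4.31% of all genes had an unadjusted p under 0.05, and 0 genes passed. Dcp1a had the lowest value, -0.47 (SE 0.307, 95% interval -1.18 to 0.24), with 0.69 and 0.85 in the WT and 0.38 and 0.23 in the depleted cultures, and an SE of 0.277 when paired (95% interval -1.15 to 0.22). Its labelled levels were 4.33, 4.72, 3.22 and 4.18 TPM in WT and 5.24, 5.11, 4.91 and 4.50 TPM in depleted libraries, against 6.75, 9.21, 7.02 and 7.84 TPM and 5.79, 8.46, 6.35 and 5.06 TPM in preexisting RNA. The Dcp1a means were thus higher with depletion in new RNA and lower in preexisting RNA, and the libraries overlapped in both.

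Intronic signal comes mainly from RNA that has not been spliced, and so stays close to transcription. In labelled RNA 0 of 10 members passed the test with limma, as did 0% of 21677 genes, and 3 members (Cnot6l, Dcp1a and Pan3) had an unadjusted p under 0.05 beside 22.4% of all genes. Cnot6l intronic levels were 28.6, 21.8, 32.9 and 22.8 TPM in WT and 64.5, 51.2, 57.0 and 36.9 TPM in depleted libraries, with no overlap. The log2 change was 0.97 (SE 0.201, limma adjusted p = 0.129). With a pseudocount of 1 TPM in place of 0.1 the change was 0.95 with limma adjusted p = 0.0431. That setting passed 1118 of all genes, where the smaller pseudocount passed 0.

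The intronic signal of most other members also had higher means in depleted labelled RNA. Log2 changes were 0.54 for Pan3, 0.53 for Dcp1a, 0.52 for Xrn1, 0.48 for Dcp2, 0.44 for Cnot1, 0.36 for Cnot8, 0.28 for Cnot7, 0.14 for Pan2 and -0.10 for Cnot6. Most of the Cnot6 signal came from 1 noncoding transcript's entry, with means of 80.6 TPM in WT and 60.4 TPM in depleted libraries. Intronic entries of its coding transcripts had higher means with depletion, 14.8 and 17.4 TPM and 11.7 and 14.2 TPM (WT, then depleted), with overlapping libraries. The members' median was 0.46, beside 0.33 over all genes. The intronic share of these libraries, given above, was also larger in depleted cells, and its part in the result was not tested. Depleted libraries all lay above WT for Cnot6l, Cnot8 and Pan3, 3 of 10, where 24.5% of all genes did so, and below WT for 0 of 10, where 0.803% of all genes did so. With each library centred on the median log2 intronic level of the tested genes, the Cnot6l change was 0.64 (limma adjusted p = 0.513).

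In preexisting RNA the intronic signal was lower, and 0 of 10 members passed the test with limma, beside 0.00923% of all genes. At an unadjusted p under 0.05 there were 4 members, beside 24.9% of all genes. Cnot6l was at 2.22, 2.40, 3.85 and 2.15 TPM in WT and 6.06, 4.60, 7.32 and 4.88 TPM in depleted libraries. Its log2 change was 1.09 (SE 0.201, limma adjusted p = 0.0583). Dcp1a was at 0.283, 0.280, 0.327 and 0.181 TPM in WT and 0.663, 0.381, 0.710 and 0.350 TPM in depleted libraries, a log2 change of 0.73 (limma adjusted p = 0.0821). Xrn1 had a log2 change of 0.71 (limma adjusted p = 0.153). Cnot6l and Dcp1a were the 2 members whose genotypes did not overlap, where 18.5% of all genes lay higher in every depleted library and 0.526% lower.

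Cnot6 had the highest intronic level of the members in both fractions and genotypes. Its intronic signal in WT was 125, 170.0, 107 and 96.6 TPM in labelled and 118, 56.9, 38.6 and 57.1 TPM in preexisting libraries, above its own exonic level in each labelled library. A single intronic entry, that of a transcript listed as processed, without a coding sequence, gave 64.7% of the labelled and 80.7% of the preexisting WT signal. The log2 change with depletion in preexisting RNA was -0.56 (SE 0.302, limma adjusted p = 0.302), opposite in sign to the exonic change of Cnot6.

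The comparison of fractions asks which transcripts are rich in preexisting over new RNA. In WT, 4 of 10 members rose in exonic signal (limma, adjusted p below 0.05) and 0 fell, where 7.98% of all genes were higher, 26.1% lower and 34.1% changed in either direction. Cnot1 had 68.4, 58.7, 67.6 and 78.6 TPM in labelled and the preexisting values given above, a log2 difference of 0.88 (SE 0.176, limma adjusted p = 0.00724). All preexisting libraries of Cnot1 were above the labelled ones. Dcp1a rose by 0.77 (limma adjusted p = 0.0282), Cnot7 by 0.67 (limma adjusted p = 0.0485) and Dcp2 by 0.60 (limma adjusted p = 0.0475). Pan3 gave 0.45 (limma adjusted p = 0.0981), and Cnot6 (-0.095), Cnot8 (-0.21) and Xrn1 (-0.21) lay near or below 0.

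In depleted cells 2 of 10 members rose, beside 11.0% of all genes that were higher, 30.1% lower and 41.1% changed in either direction. These were Cnot1, at 0.92 (limma adjusted p = 0.00490), and Cnot7, at 0.90 (limma adjusted p = 0.0134). Dcp2 gave 0.52 (limma adjusted p = 0.0635) and Pan3 0.48 (limma adjusted p = 0.0707). The difference between genotypes is the ratio comparison above, in which no member passed, so the calls of Dcp1a and Dcp2 in WT alone do not show a difference between genotypes.

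These calls depended on the scale and on the number of cultures. With the exonic signal of coding genes rescaled to the same sum in every library, 0 members passed in WT and 0 in depleted cells, where 1333 and 2622 of 12522 genes did. Leaving out a culture leaves its genotype with 1 sample per fraction, which is assumed to vary like the other groups. Without WT culture 1, or without WT culture 2, 0 members passed in WT, as did 0 of all 21821 genes, and without either depleted culture 1 did, Cnot1. Without depleted culture 1, or without depleted culture 2, 0 members passed in depleted cells, where 4086 and 4277 of all genes did, out of 8972 with all cultures. The differences of the called members kept their sign, at 0.83 to 0.93 for Cnot1, 0.69 to 0.85 for Dcp1a, 0.38 to 0.96 for Cnot7 and 0.47 to 0.72 for Dcp2 in WT, and at 0.89 to 0.94 for Cnot1 and 0.87 to 0.93 for Cnot7 in depleted cells. With the 2 fractions of a culture paired by a culture block, the WT call of Dcp2 was lost (limma adjusted p = 0.0519). Pan3 passed in that fit in WT (limma adjusted p = 0.0453) and in depleted cells (limma adjusted p = 0.0320), which gave 4 and 3 members beside 38.5% and 46.5% of all genes. Another scaling centred each library on the median log2 level of the tested genes, which is not the median of their differences. It added 0.48 to every difference in WT and 0.51 in depleted cells, and so moved the median difference of all genes from -0.24 to 0.25 and from -0.28 to 0.23. On that scale 5 members passed in WT and 7 in depleted cells, all higher, where 23.6% and 27.5% of all genes were higher, and Cnot6, Cnot8 and Xrn1 turned positive in WT.

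**Figure D3:**
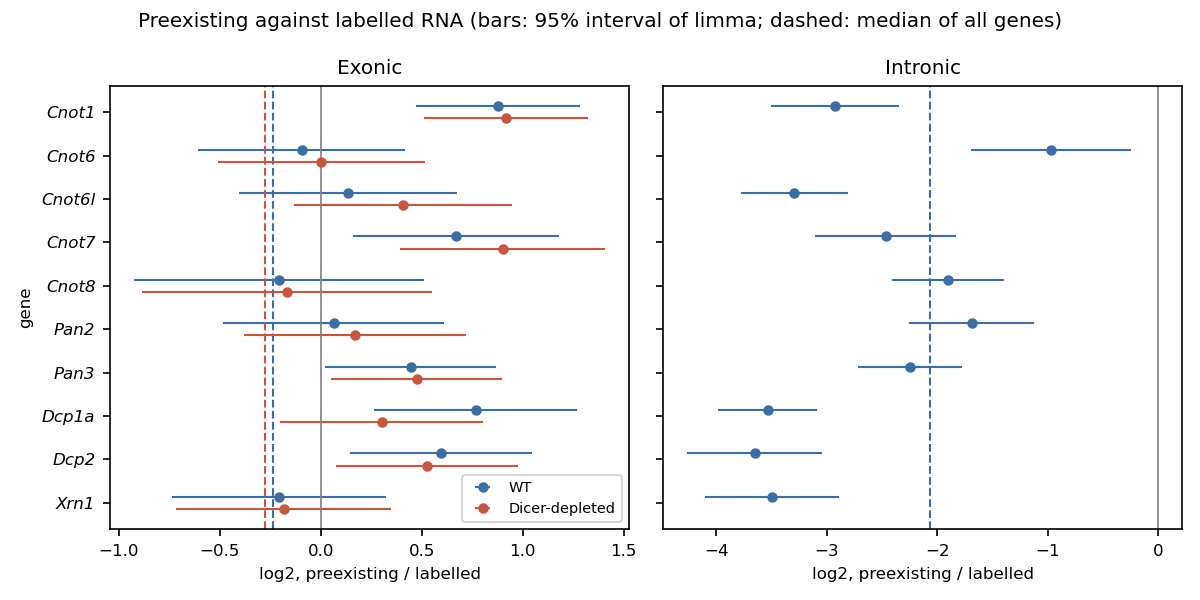
Log2 difference of preexisting over labelled RNA (x axis) for each member (y axis), exonic in WT (blue) and depleted (red) cultures and intronic in WT, with bars for limma's 95% intervals and dashed lines at the medians of all genes. Cnot1 is highest in exonic signal, at 0.88 and 0.92, and Cnot6 is nearest to 0 in intronic signal, at -0.97.

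The intronic signal of all 10 members fell from labelled to preexisting RNA in WT (limma), as it did for 91.0% of all genes, with 0.378% higher and 91.4% changed in either direction. Log2 differences were -3.65 for Dcp2, -3.54 for Dcp1a, -3.50 for Xrn1, -3.29 for Cnot6l, -2.93 for Cnot1, -2.47 for Cnot7, -2.25 for Pan3, -1.90 for Cnot8, -1.69 for Pan2 and -0.97 for Cnot6. The members' median was -2.70, beside -2.07 over all genes. Centring each library on the median log2 intronic level of the tested genes added 2.22 to every difference and moved the median of all genes to 0.16. On that scale 5 members passed, 4 lower and Cnot6 higher at 1.25 (limma adjusted p = 0.0350), where 6259 of 21677 genes passed, 9.29% lower and 19.6% higher.

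Labelling times were compared within cultures. Between 15 and 10 minutes in labelled RNA, with culture as a block, 0 of 10 members passed with limma, and 0.00458% of all genes passed. At an unadjusted p under 0.05 there was 1 member, beside 10.4% of all genes. That member was Cnot6l, with a log2 difference of -0.34 (SE 0.123, limma adjusted p = 0.474).

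The wider machinery was described with 53 further decay factors, of which 52 were tested. In preexisting RNA 0 of 52 passed with limma, beside 0.646% of all genes, 14 had an unadjusted p under 0.05, beside 17.8% of all genes, 22 lay above 0 and 30 below, and their median log2 change was -0.071. Of all genes, 11602 lay above 0 and 10021 below, with a median of 0.035. Other deadenylation factors had a median of 0.19 over 17 genes, other decapping factors -0.22 over 18, and the exosome and other 3′ decay factors -0.38 over 15. The 3 smallest p-values belonged to genes with lower means in depleted cells. Pabpc4, a cytoplasmic poly(A)-binding protein, had a WT mean of 246 ± 7.99 TPM and a depleted mean of 134 ± 7.51 TPM (SD, n = 2 cultures), a log2 change of -0.88 (limma adjusted p = 0.0563). Exosc7, an exosome subunit, was at 13.1 ± 0.301 and 6.13 ± 1.31 TPM (log2 change -1.41, limma adjusted p = 0.0565). Exosc2, another exosome subunit, was at 23.4 ± 2.44 and 11.7 ± 2.44 TPM (log2 change -1.04, limma adjusted p = 0.103). In labelled RNA 0 of 52 passed with limma, beside 0.128% of all genes, and 5 had an unadjusted p under 0.05, beside 13.6%. Of the 52, 16 lay above and 36 below 0, with a median of -0.12. Of all genes, 12078 lay above and 9713 below 0, with a median of 0.056.

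**Figure D4:**
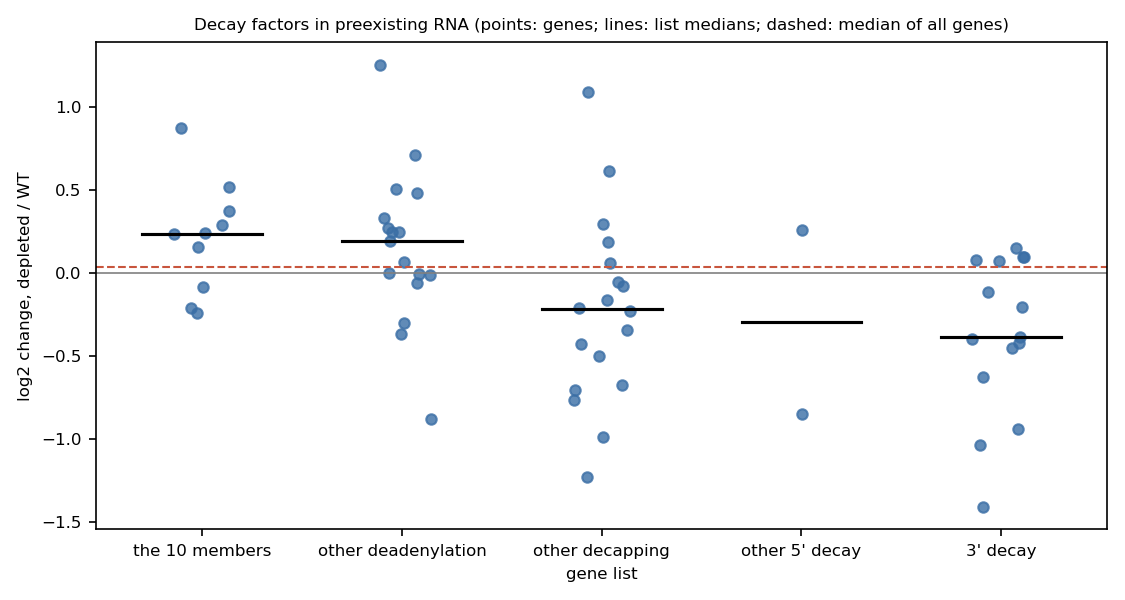
Log2 change, depleted over WT, in exonic preexisting RNA (y axis) for each tested gene (points, spread sideways at random) of the 10 members and 4 lists of further decay factors (x axis), with black lines for list medians and a dashed line for the median of all genes. The members' median is 0.24 and that of the 3′ decay factors is -0.38.

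The members did not share 1 profile over the 8 culture-by-fraction means. Their correlation with the mean standardised profile of the 10 ranged from 0.94 for Cnot7 and 0.93 for Pan3 to 0.20 for Xrn1 and -0.56 for Cnot8. Each member is itself part of that mean, which raises its value, so these values do not compare with those of other genes. They are a description over 8 points that share libraries. Among 17362 other genes, Sipa1l1 (0.99), Gm13161 (0.99), Mex3c (0.98), Ptprj (0.98) and Anln (0.98) had the highest correlation with that mean profile.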

How the data were processed

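The deposited 4sU values, named TPM, are a signal whose columns each sum to 10000000, so they were divided by 10 to give TPM. Per the labels, reads of ribosomal RNA were filtered out using STAR 2.5.0, and RSEM quantified the others over exonic and intronic sequences. Exonic and intronic entries were summed per GENCODE M21 gene. The depth of these libraries is unknown. Genes with a mean of at least 1 TPM (intronic 0.1) were tested with limma 3.58.1 (R 4.3.3, trend) on log2(TPM + 1), or + 0.1 for introns. The 10 and 15 minute values of a culture were averaged, 1 model held the 4 groups of 2 cultures, and p-values were adjusted (Benjamini-Hochberg) over all genes. The deposited small RNA counts per mature microRNA (per the labels: cutadapt 1.8, Bowtie2, HTSeq, miRBase 21) were scaled to all reads and only described. Of 1907 microRNA identifiers, 1623 matched a RefSeq sequence, and the 6 most abundant were taken from these. The fits were tested on simulated data. The members and lists were chosen with earlier results of these data known. Values of all 10 members are given for both exonic genotype comparisons, for intronic labelled RNA and for the intronic comparison of fractions. In the other comparisons the text names only some members, mostly those with the larger differences. Also named are Dicer1, the 3 other decay factors of smallest p where none passed, the 5 genes of most similar profile and the 6 most abundant microRNAs.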

Additional observations from a re-analysis of the deposited data

Results flagged for a closer look

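In 5 of 80 sets of 4 libraries (1 member, genotype, fraction and kind of signal each), 1 library lay farther from the other 3 than Dixon's 95% critical value allows. Chance gives about 1 in 20, or 4 of 80. The 10 minute library of depleted culture 2 was high in labelled exonic signal for Cnot6l, at 44.3 TPM against 29.6, 30.3 and 30.6, and for Dcp2, at 18.5 TPM against 12.6, 12.7 and 13.3. The 10 minute library of WT culture 2 was high in preexisting intronic signal for Cnot6l, at 3.85 TPM against 2.15, 2.22 and 2.40. That library was low in preexisting exonic signal for Cnot8, at 7.72 TPM against 16.8, 17.1 and 18.2. The 15 minute library of WT culture 1 was low in labelled intronic signal for Cnot8, at 4.48 TPM against 5.69, 5.79 and 5.88.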

How the results depend on the processing

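No member passed the exonic genotype, ratio or labelling-time tests under any setting run. Members passing in WT between fractions went from 4 to 1 at a mean of at least 5 TPM, 0 with coding genes rescaled to 1 sum, 0 with 10 minute libraries alone, 1 with only the groups compared, 2 with entries of coding transcripts only (chosen after seeing the data) and 0 to 1 leaving out a culture. In depleted cells the 2 became 7 with each library centred on its median log2 level, 0 with coding genes rescaled, 1 with 10 minute libraries alone and 0 to 2 leaving out a culture. In intronic signal 0 became 1 with a pseudocount of 1 TPM (labelled, genotype) and 10 became 5 centred. The number of all genes passing between exonic fractions moved as well. In WT it went from 7434 to 8544 centred and to 8992 with no filter on low values. In depleted cells it went from 8972 to 10067 centred, 12863 with no filter and 2144 with entries of coding transcripts only. Counts with coding genes rescaled are given above. The part of these shifts in the member counts was not tested. Small changes turned sign. With each library centred on its median log2 level, Pan2 labelled gave -0.055, the WT fraction differences gave 0.39 (Cnot6), 0.27 (Cnot8) and 0.28 (Xrn1), intronic labelled changes gave -0.049 (Cnot7) and -0.19 (Pan2), and intronic WT fraction differences gave 1.25 (Cnot6), 0.32 (Cnot8) and 0.53 (Pan2). With 10 minute libraries alone, Cnot1 preexisting gave 0.066 and Pan2 labelled -0.13. With 15 minute ones, Xrn1 preexisting gave -0.032 and Cnot7 labelled -0.084. With coding entries only, the Xrn1 fraction difference was 0.036. Leaving out a culture, preexisting changes ranged from -0.24 to 0.068 (Cnot1), -0.54 to 0.11 (Cnot8), -0.065 to 0.38 (Pan2) and -0.036 to 0.50 (Xrn1), labelled Pan2 from -0.062 to 0.17, WT fraction differences from -0.37 to 0.18 (Cnot6) and -0.50 to 0.087 (Cnot8), and intronic labelled changes from -0.36 to 0.17 (Cnot6) and -0.045 to 0.33 (Pan2). The cause was not tested. WT and depleted cultures share only a number: deviations of the same number correlated at 0.16 (labelled) and 0.22 (preexisting), over 2 pairs. With a replicate block, 0 members passed in preexisting RNA (Cnot6l limma adjusted p = 0.0571) while all genes passing went from 141 to 267, and no member's call changed. Over all settings, genes passing in preexisting RNA ranged from 0 with no filter on low values to 327 with coding entries only, and in labelled RNA from 0 to 86. Dicer1 in preexisting RNA kept its direction, -2.67 to -2.07, with limma adjusted p from 0.0108 to 0.440. Depth being unknown, no counting error is given.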
